A study of Mus musculus with 19 samples.

Results

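The core spliceosome genes examined here are the protein-coding genes of the expression table whose symbols begin with Snrp, with Sf3a or Sf3b and a digit, with Prpf and a digit, or with U2af. This rule found 37 members among 25891 genes, of which 17318 are protein-coding. RNA was sequenced from 19 libraries of mouse MII oocytes, which are mature and wait in metaphase for fertilization, and of 2cell embryos. At the MII stage 5 libraries are labelled CPEB3+/- and 5 CPEB3-/-, and at the 2cell stage 5 and 4. The females were BL6 mice of 6 to 10 weeks, superovulated with 5 IU PMSG and, 48 h later, 5 IU hCG. In the study's CPEB3-/- females a floxed Cpeb3 is deleted by a Cre recombinase under the Zp3 promoter, which is active in growing oocytes. The 2cell embryos came from zygotes of mated females (17 h after hCG), cultured in vitro in M16 medium and were taken 37 h after hCG. CPEB3-/- females were mated with wild-type males, so their embryos have a wild-type paternal allele. The control libraries are labelled heterozygous, and no library is labelled wild type. The methods write the study's control as CPEB3 LoxP/- with ZP3 Cre+/-, or as CPEB3+/+, so the controls may carry the Cre as well, and the labels do not say. The methods describe samples of 5 cells in 4 replicates, while the labels list 5 libraries in 3 groups and 4 in the other, all of which were used. Nothing in the labels says which libraries came from separate females, so the p-values measure the spread between these libraries.

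The spliceosome is built on nuclear precursor RNA from small nuclear ribonucleoproteins (snRNPs). Each is an snRNA with a ring of Sm proteins, or of LSm proteins for U6, and its own proteins. U1 snRNP recognises the 5′ splice site, U2AF and U2 snRNP with its SF3a and SF3b subcomplexes recognise the 3′ splice site and the branch point, and the U4/U6 and U5 tri-snRNP joins before the complex is remodelled for catalysis. MII oocytes are transcriptionally silent and live on stored maternal RNA, which is degraded after fertilization while the 2cell embryo starts its own transcription. CPEB3 belongs to a family of proteins that bind U-rich elements in 3′UTRs and act on polyadenylation, stability and translation.

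The level of Cpeb3 was not lower in the libraries labelled CPEB3-/-. Its mean ± SD was 0.0755 ± 0.0240 FPKM in MII libraries with the CPEB3+/- label (n = 5) and 0.162 ± 0.0325 FPKM in those with the CPEB3-/- label (n = 5), a log2 fold change of 0.53. It passed the filter of 0.1 FPKM in 5 libraries through the CPEB3-/- libraries (0.131 to 0.215 FPKM). For this reason no p-value is given. At the 2cell stage it was listed at 0.0303 ± 0.0149 FPKM (n = 5) and 0.0554 ± 0.0129 FPKM (n = 4), too low to be tested. These values cover the whole gene, so they do not check the deletion of a part of it, and CPEB3-/- and CPEB3+/- below name the libraries so labelled. FPKM are fragments scaled to transcript length and library size, and the depth read from the steps of low values was 17.25 to 23.6 M fragments (M, mega). The FPKM of a library summed to 77208 to 86770 at MII, to 135309 to 159320 in CPEB3+/- 2cell and to 113886 to 123318 in CPEB3-/- 2cell libraries. The summed level of 10 oocyte markers was 909 to 1248 FPKM at MII and 160 to 230 FPKM at the 2cell stage, and that of the 8 of 10 listed 2cell markers in the table was 38.0 to 61.2 FPKM and 552 to 965 FPKM. The 7 of 10 listed markers of cumulus and granulosa cells in the table summed to 0.326 to 0.546 FPKM at MII and 0.692 to 1.27 FPKM at the 2cell stage, with 1 of 7 at 0 in all libraries of each group but CPEB3+/- 2cell. The 2 of 6 listed blood cell genes in the table summed to 0.0512 to 0.428 FPKM at MII and 46.2 to 146 FPKM at the 2cell stage. The part of other cells in the results was not tested.

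The 3′UTRs of the members are shown because CPEB proteins bind U-rich elements there. The longest 3′UTR annotated for each gene was searched on the transcript strand for TTTTAT, for TTTTAAAT, for TTTTAAGT, for TTTTACT and for TTTTCAT, written as DNA, which can overlap each other only in a shared T. They stood in 21, 5, 1, 10 and 8 of 37 members. At least 1 of these stood in 24 of 37 members (64.9%) and in 62.6% of 17164 genes. Between 301 and 1567 bases, the middle range of the members' 3′UTRs, the shares were 63.2% of 19 members and 58.6% of 7866 genes. The members below were called between the genotypes or for the interaction, and each is printed with the 30 bases around its last motif in GRCm38, 5′ to 3′ on the transcript strand, with that motif in capitals. In Snrpd3 the motif began 34 bases before the end of the 3′UTR and stood shortly before an AATAAA polyadenylation signal (chr10:75537336-75537365, plus strand). In Prpf39 (chr12:65063043-65063072, plus strand), Sf3b1 (chr1:54985236-54985265, minus strand), Prpf4 (chr4:62426877-62426906, plus strand), Prpf38a (chr4:108565064-108565093, minus strand) and Prpf3 (chr3:95830587-95830616, minus strand) it began 333, 85, 102, 212 and 482 bases before the end.
Snrpd3: ctgtttggtttaTTTTATtgtattaataaa
Prpf39: tggtggtgcagTTTTAAATcccagcactca
Sf3b1: gattttatttttTTTTATattgtattttta
Prpf4: ataatttatataTTTTATaatatcttactc
Prpf38a: gttgggttttgtTTTTATtttaatattaca
Prpf3: tagtatgatatTTTTCATatggtcatagat

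None of these letters stood in the longest annotated 3′UTR of U2af1, Snrpa1, Snrpa or Snrpd1, which were also called between the genotypes. None stood in that of Snrpb or Snrpc, which rose more than any other member but Snrpd2 from the MII to the 2cell stage in CPEB3+/- libraries. The matches describe letters in annotated sequence and were not tested as binding sites.

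The members' promoters are shown because members of the same particle moved in opposite directions between the stages. RefSeq windows (GRCm38.p6, 250 bases before to 50 bases after the start) were matched for 30 of 37 members and searched on both strands. The ETS motif CCGGAAG stood in 14 of 30 members (46.7%), in 9.93% of 27025 genes and in 20% of the 8939 genes that have such a window and at least 0.1 FPKM in 4 libraries. A GC box (GGGCGG) stood in 53.3% of the members, 38.2% of genes and 63% of those expressed genes, so the members lay above the first share and below the second. CCAAT stood in 43.3%, 41.1% and 44.2%, TATAAA in 10%, 15.7% and 10.2%, AAGATGG (YY1) in 6.67%, 7.28% and 8.6%, and the NRF1 motif TGCGCATGC in 0%, 1.72% and 3.51%. The median GC content was 58.7% in the members' windows and 53.3% in all, and its part in the motif shares was not tested. The 4 windows below hold the ETS motif, in capitals on either strand, of 2 members that rose between the stages in CPEB3+/- libraries (Snrpc, chr17:27840037-27840066, plus strand, and Sf3b6, chr12:4817527-4817556, plus strand) and 2 that fell (Sf3a3, chr4:124714760-124714789, plus strand, and Prpf3, chr3:95855792-95855821, minus strand). The motif was thus found in members of either direction. Among those holding it, Snrpc, Sf3b6 and Snrpg were called higher at the 2cell stage in CPEB3+/- libraries. Prpf3, Prpf6, Sf3a1, Sf3a2, Sf3a3, Sf3b2 and Snrpb2 were called lower, and the others were not called.
Snrpc: tagggcagaggCCGGAAGcggaagtcctac
Sf3b6: cggtccgcaatCCGGAAGcgttctggagct
Sf3a3: cccccaagacaCTTCCGGgacacgcggaac
Prpf3: ccgtagggcaaCCGGAAGgtttccggttcc

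The members' levels per length differed widely. In CPEB3+/- MII oocytes 8 of 37 members had a mean of at least 10 FPKM, 22 of at least 1 FPKM and 35 of at least 0.1 FPKM. Over all libraries the highest means were those of Sf3b5, the smallest SF3b subunit, and of Snrpe, an Sm ring protein. Sf3b5 was listed at 19.8, 26.5, 19.9, 20.7 and 24.8 FPKM in CPEB3+/- MII libraries A to E, and at 42.4, 54.4, 51.8, 49.9 and 58.5 FPKM in CPEB3+/- 2cell libraries. The 2cell libraries all lay above the MII libraries (log2 fold change 1.23 ± 0.150), and the call was lost when scaled to one sum of FPKM (0.42). The lowest means were those of Prpf40b, a gene of the U1-linked role, and Snrpn, the SmB paralog known from brain. Prpf40b was listed at 0.00239, 0.0225, 0.00578, 0.0251 and 0.0315 FPKM in CPEB3+/- MII libraries and was too low to be tested in any comparison. Snrpn was listed at 0.0487, 0.0812, 0.0837, 0.0783 and 0.0805 FPKM there and at 0.273, 0.225, 0.248, 0.186 and 0.311 FPKM in CPEB3+/- 2cell libraries, all higher (log2 fold change 1.01 ± 0.114). In both genotypes its MII values lay under the filter of 0.1 FPKM and its 2cell values above it. It was thus tested only through the 2cell libraries, and its calls, counted below among the higher members, add no support. The MII values stand for about 2.14 to 4.27 fragments, and its call was lost when scaled to one sum of FPKM, with quantile scaling and with log2(FPKM + 1) (down to 0.22). Its coding sequence shares 80.5% of aligned bases with that of Snrpb, and the longest identical run is 32 bases. The values per library of 36 members are drawn in the plot of levels by role.

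**Figure D1:**
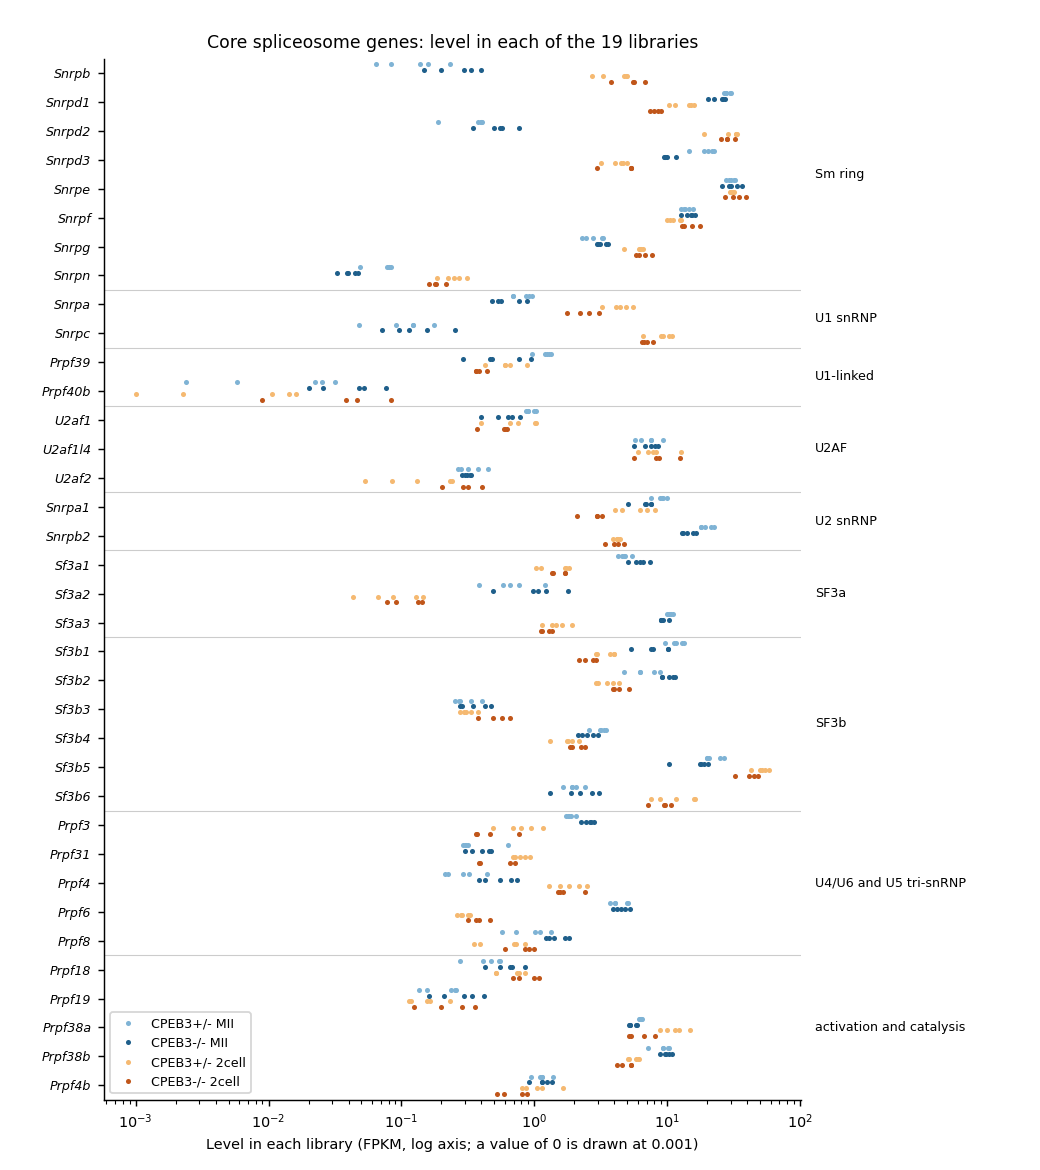
Level of 36 core spliceosome genes (FPKM, log axis) in every library, 1 point per library, in 4 colours for stage and genotype label and ordered by role. Snrpb, Snrpd2 and Snrpc sit below 1 FPKM in every MII library and above 2 FPKM in every 2cell library, and Snrpe sits between 26.0 and 39.4 FPKM in all.

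Members of one particle were not present at equal levels per length. Among the 7 Sm ring genes without Snrpn, the highest mean in CPEB3+/- MII oocytes, Snrpe at 30.3 FPKM, was 225 times the lowest, Snrpb at 0.134 FPKM. In CPEB3-/- MII oocytes this ratio was 113. At the 2cell stage it was 7.44 in CPEB3+/- and 6.99 in CPEB3-/- embryos. Snrpe was the highest in all 4 groups, so the narrower span reflects the lower end, as the plot of the Sm ring shows. The ring's summed level was 95.7 ± 6.93 FPKM in CPEB3+/- MII oocytes (n = 5) and 99.6 ± 9.27 FPKM in CPEB3+/- 2cell embryos (n = 5). Over all 37 members the sums were 225 ± 7.82 and 233.5 ± 23.7 FPKM, with overlapping ranges, while the sum over all genes was higher in each 2cell library than in each MII library.

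**Figure D2:**
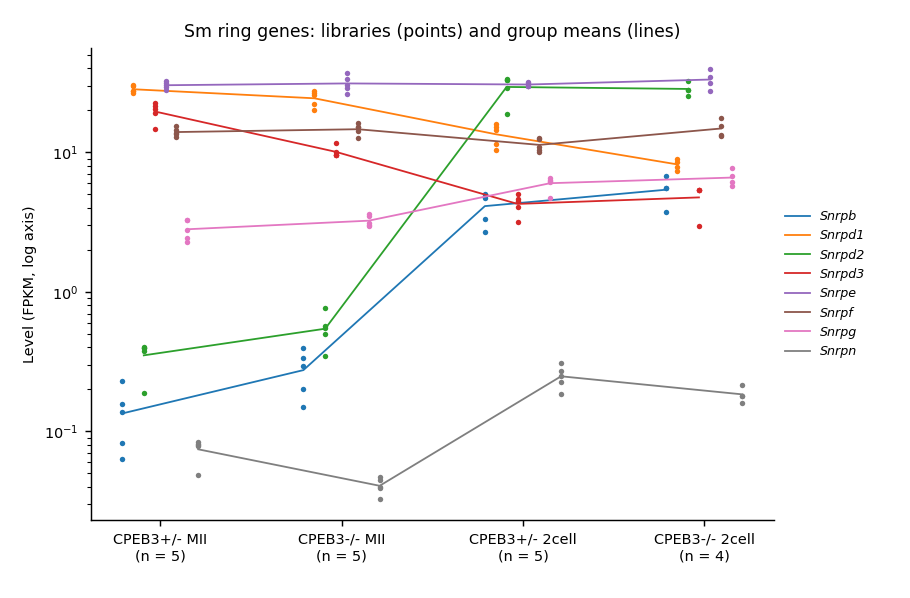
Level of the 8 Sm ring genes (FPKM, log axis) in the 4 groups, with points for libraries and lines joining the group means. At the MII stage Snrpb and Snrpd2 lie below 1 FPKM beside Snrpe near 30 FPKM, and at the 2cell stage all but Snrpn lie between 2 and 40 FPKM.

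Between MII oocytes and 2cell embryos the question is which spliceosome RNAs are lost with the maternal store and which appear with the embryo. A gene was called where the adjusted p was under 0.05 (limma, Benjamini-Hochberg over all genes tested) and the difference over 1.5-fold. Fold changes are of log2(FPKM + 0.1), so those of low genes are too small. In CPEB3+/- libraries 26 of 36 tested members were called, 11 with higher and 15 with lower levels in 2cell embryos, against a background of 65.5% of all 15786 genes tested (41.7% higher, 23.7% lower). In CPEB3-/- libraries 24 of 36 were called, 9 higher and 15 lower, against 64.7% (40.9% higher, 23.8% lower). The share called, 72.2% and 66.7%, is near the background in both. Counted on scaled values, here and below, the stages did not overlap for 27 members in CPEB3+/- (12 higher, 15 lower) against 59.1% of all genes (36.6% and 22.5%), and for 24 in CPEB3-/- (9 higher, 15 lower) against 59.4% (36.9% and 22.4%).

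The median log2 fold change was -0.29 over the members and 0.37 over all genes tested in CPEB3+/-, and -0.11 and 0.35 in CPEB3-/-. The split of calls depends on the scaling. When libraries were brought to one sum of FPKM, the median of all genes in CPEB3+/- was -0.17, and 6 members were higher and 23 lower. The 10 genes named next were called in the same direction in all 10 alternative settings and with each of the 19 libraries left out. The size of their log2 fold changes in CPEB3+/- depended on the setting. It ran, for example, from -2.69 to -0.63 for Sf3a2, -4.12 to -2.03 for Prpf6 and 2.17 to 4.20 for Snrpb. The kit primes cDNA on the poly(A) tail, so fewer RNA molecules and shorter tails cannot be told apart, nor can fewer cells and less RNA per cell.

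The largest rises were in the Sm ring and U1 snRNP. Snrpd2, an Sm ring protein (chr7:19149722-19153542), was listed at 0.397, 0.375, 0.188, 0.401 and 0.394 FPKM in the CPEB3+/- MII libraries A to E and at 18.9, 28.9, 33.0, 33.1 and 33.4 FPKM in the CPEB3+/- 2cell libraries. Every 2cell library was far above every MII library, and the log2 fold change was 6.06 ± 0.177 (SE, adjusted p = 1.26e-15). In CPEB3-/- libraries it was listed at 0.765, 0.496, 0.572, 0.345 and 0.548 FPKM at MII and at 32.5, 25.5, 28.1 and 28.0 FPKM at the 2cell stage, again far apart (5.54 ± 0.187). Snrpc, the U1-specific C protein that helps U1 hold the 5′ splice site (chr17:27838150-27851968), went from 0.122, 0.0904, 0.123, 0.0484 and 0.177 FPKM to 6.53, 9.06, 9.34, 10.9 and 10.3 FPKM, a log2 fold change of 5.49 ± 0.186. Its stages did not overlap either, and the MII values stand for about 6.48 to 22.6 fragments per library. Snrpb, which encodes SmB (chr2:130171414-130179403), went from 0.0829, 0.231, 0.137, 0.158 and 0.0640 FPKM, about 2.47 to 9.48 fragments, to 2.70, 3.31, 5.00, 4.87 and 4.72 FPKM, a log2 fold change of 4.20 ± 0.223 without overlap.

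Sf3b6, the SF3b subunit that touches the branch point, was listed at 2.05, 1.91, 2.40, 1.92 and 1.65 FPKM in CPEB3+/- MII libraries and at 7.60, 8.84, 11.7, 16.3 and 15.9 FPKM in CPEB3+/- 2cell libraries, all of them higher (2.51 ± 0.228). Prpf4 of the U4/U6 particle went from 0.226, 0.323, 0.292, 0.211 and 0.441 FPKM to 1.57, 1.28, 2.49, 2.19 and 1.83 FPKM, also without overlap (2.33 ± 0.190). In CPEB3-/- libraries Snrpc, Snrpb, Sf3b6 and Prpf4 had log2 fold changes of 4.97, 3.93, 2.08 and 1.57, and each was called.

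The largest falls were in the tri-snRNP, SF3a and U2 snRNP. Prpf6, a U5 protein that bridges the tri-snRNP (chr2:181591868-181655660), was listed at 4.02, 4.95, 3.73, 4.05 and 5.05 FPKM in CPEB3+/- MII libraries and at 0.288, 0.282, 0.319, 0.330 and 0.261 FPKM in CPEB3+/- 2cell libraries. All MII libraries lay far above all 2cell libraries (log2 fold change -3.47 ± 0.104, and -3.23 ± 0.110 in CPEB3-/-). The 3 SF3a genes, whose products join U2 snRNP near the branch point, each fell in both genotypes. Sf3a3 (chr4:124714776-124732460) went from 10.2, 10.3, 11.1, 9.92 and 10.7 FPKM to 1.14, 1.36, 1.47, 1.92 and 1.62 FPKM in CPEB3+/- libraries, without overlap (-2.72 ± 0.107). Sf3a2 went from 0.658, 1.21, 0.385, 0.577 and 0.770 FPKM to 0.0671, 0.129, 0.0431, 0.0860 and 0.144 FPKM, the latter about 1.98 to 7.76 fragments (-2.02 ± 0.264). It shares 16.1% of its exon bases with Plekhj1 on the other strand, which has a mean of 18.0 FPKM, so its level is uncertain. With Sf3a1 (-1.62 ± 0.141), the summed SF3a level was 15.9 ± 0.676 FPKM in CPEB3+/- MII oocytes (n = 5), and at the 2cell stage 3.07 ± 0.640 FPKM (n = 5).

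Snrpb2, the U2-specific B protein that binds U2 snRNA, was listed at 22.5, 17.9, 21.5, 19.3 and 18.1 FPKM in CPEB3+/- MII libraries and at 3.93, 4.22, 4.26, 4.16 and 4.43 FPKM in CPEB3+/- 2cell libraries. The stages lay far apart (-2.18 ± 0.114). Snrpd3 of the Sm ring fell by 2.15 ± 0.170 on the log2 scale, with values given below.

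Directions were mixed within roles. In CPEB3+/- libraries the Sm ring had 4 members higher, Snrpn among them, and 2 lower of 8. There SF3b had 2 and 3 of 6, the tri-snRNP genes 2 and 2 of 5, and both U1 snRNP genes were higher. U2AF had 1 lower of 3 and U2 snRNP 1 lower of 2. Snrpe, Snrpf, U2af1, U2af1l4, Sf3b3, Prpf18 and Prpf19 were tested and called in neither genotype. Snrpe was listed at 27.9 to 32.2 FPKM in CPEB3+/- MII libraries and at 29.9 to 31.9 FPKM in CPEB3+/- 2cell libraries, with overlapping groups and a log2 fold change of 0.05 ± 0.112. Its sign depends on the setting, and scaled to one sum of FPKM it was called lower (-0.77). Snrpf shares 65.9% of its exon bases with Ccdc38 on the other strand and U2af1l4 65.6% with Gm49396 on its own strand, and both neighbours have means under 1 FPKM. U2af1l4 also shares 7.19% with Psenen on the other strand, which has a mean of 35.7 FPKM, so its level is uncertain. Of the members, 21 were called in both genotypes, 9 higher in both and 12 lower in both. The plot of stage changes shows the genotypes side by side.

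**Figure D3:**
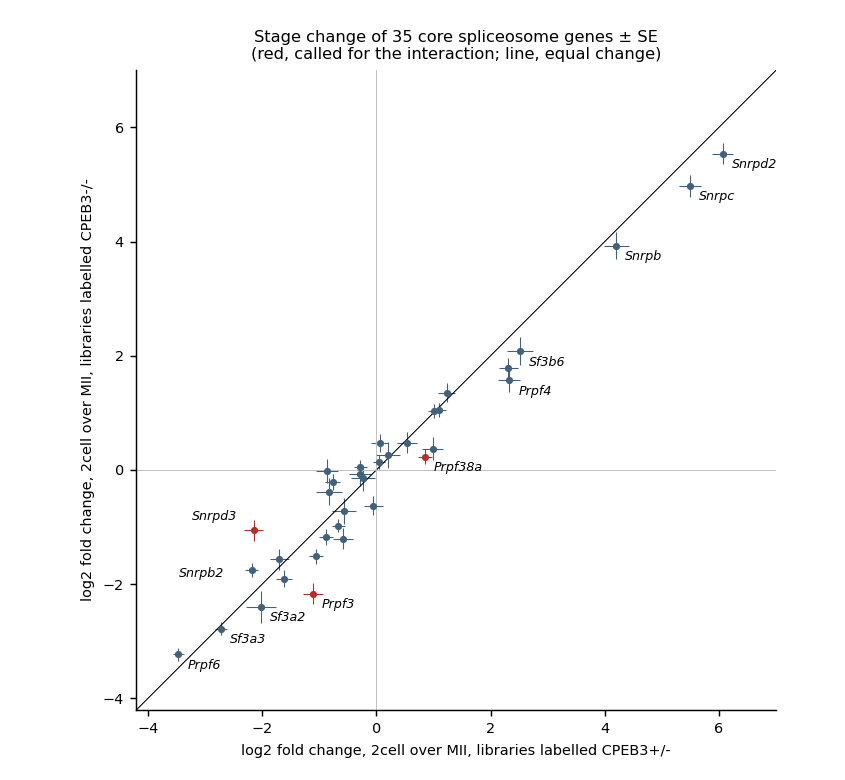
Log2 fold change of 2cell embryos over MII oocytes (limma, log2(FPKM + 0.1)) of 35 members, in libraries labelled CPEB3+/- on the x axis and CPEB3-/- on the y axis, with standard errors as bars. Snrpd2, Snrpc and Snrpb lie at the upper right and Prpf6 at the lower left, and Snrpd3, Prpf3 and Prpf38a, in red, were called for a difference between the genotypes.

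Between CPEB3-/- and CPEB3+/- MII oocytes 5 of 35 tested members were called, Prpf4 higher and Snrpd3, Prpf39, U2af1 and Sf3b1 lower in CPEB3-/-, against a background of 12.8% of 10515 genes tested (5.64% higher, 7.19% lower). This share, 14.3%, is near the background. Groups did not overlap for 7 members, 2 higher and 5 lower, against 16.7% of all genes tested (7.72% and 8.94%). The median log2 fold change was -0.03 over the members and 0.01 over all genes tested, and Prpf40b and Snrpn were too low to be tested. Genotype log2 fold changes rose with transcript GC content over the tested genes with a known GC content (Pearson r = 0.316 at MII and 0.366 at the 2cell stage). Over the members r was 0.355 and 0.286. The part of this trend in the calls was not tested beyond the setting that removes it. The summed oocyte markers had a median of 1172 FPKM in CPEB3+/- and of 949 FPKM in CPEB3-/- MII libraries, with overlapping ranges, and the 2cell markers ran from 38.0 to 45.5 FPKM and from 46.1 to 61.2 FPKM, without overlap. Their part in these results was not tested. A further 8 members had an adjusted p under 0.05 and differed by under 1.5-fold. Scaled to one sum of FPKM, 6 members were called, 4 higher (Prpf4, Prpf8, Sf3b2 and Snrpb) and 2 lower (Prpf39 and Snrpd3). As deposited, 2 were higher (Prpf4 and Sf3b2) and 2 lower (Prpf39 and Snrpd3).

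Snrpd3, the SmD3 protein of the Sm ring (chr10:75517551-75537381), was listed at 22.6, 20.4, 21.7, 14.6 and 19.1 FPKM in the CPEB3+/- MII libraries A to E and at 9.55, 9.62, 11.7, 10.0 and 9.54 FPKM in the CPEB3-/- MII libraries. Each CPEB3-/- library was lower than each CPEB3+/- library. The log2 fold change was -1.04 ± 0.138 (adjusted p = 0.00102), and it was called in 10 of 10 alternative settings and with each of the 10 libraries left out (-1.15 to -0.97). Its 3′UTR holds the U-rich element beside the polyadenylation signal printed above. Such an element near AATAAA also began 16 bases before the 3′UTR end in Prpf8 and 10 bases before it in Prpf19. Neither of these members was called between the genotypes. Prpf39, a U1-associated protein, was listed at 1.25, 1.20, 1.34, 1.30 and 0.958 FPKM in CPEB3+/- and at 0.289, 0.479, 0.462, 0.950 and 0.766 FPKM in CPEB3-/- MII libraries. The highest CPEB3-/- library lay just under the lowest CPEB3+/- library as deposited, and the groups overlapped after scaling (log2 fold change -1.08 ± 0.263, adjusted p = 0.0174). It was called in 7 of 9 alternative settings and with each library left out. It shares 5.01% of its exon bases with Fkbp3 on the other strand, which has a mean of 1.70 FPKM, so the level of Prpf39 is uncertain.

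U2af1, the small U2AF subunit that contacts the AG of the 3′ splice site, was listed at 0.899, 1.03, 0.868, 0.898 and 0.988 FPKM in CPEB3+/- and at 0.779, 0.399, 0.633, 0.530 and 0.676 FPKM in CPEB3-/- MII libraries, without overlap. Its log2 fold change was -0.67 ± 0.138 (adjusted p = 0.00929), and without CPEB3-/- library B it was -0.55, under 1.5-fold. It was also under 1.5-fold as deposited (-0.58), scaled to one sum (-0.52) and with log2(FPKM + 1) (-0.32). Sf3b1, the large SF3b subunit that clasps the branch helix, was listed at 11.3, 9.68, 13.3, 12.9 and 11.6 FPKM and at 5.39, 7.81, 7.49, 10.1 and 10.1 FPKM, with overlapping groups. Its call (-0.64 ± 0.200, adjusted p = 0.0447) was made in 2 of 10 alternative settings and in 3 of 10 fits that left out a library (-0.74 to -0.48). Prpf4, the only member called higher in CPEB3-/- MII libraries, was listed at 0.226, 0.323, 0.292, 0.211 and 0.441 FPKM in CPEB3+/- and at 0.742, 0.556, 0.669, 0.424 and 0.382 FPKM in CPEB3-/- libraries. These groups overlapped too, and its call (0.64 ± 0.183, adjusted p = 0.0328) was made in 6 of 9 alternative settings and in 4 of 10 fits that left out a library (0.55 to 0.74).

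Of the other roles at the MII stage, both U2 snRNP genes had an adjusted p under 0.05 and under 1.5-fold, with log2 fold changes of -0.49 ± 0.149 for Snrpa1 (adjusted p = 0.0415) and -0.55 ± 0.130 for Snrpb2 (adjusted p = 0.0156). Of the tri-snRNP genes 4 of 5 had positive values, with 0.55 ± 0.174 for Prpf8, the scaffold of the catalytic centre (adjusted p = 0.0470), and 0.35 ± 0.0916 for Prpf3 (adjusted p = 0.0235). In SF3b, Sf3b2 had 0.51 ± 0.124 and Sf3b5 -0.51 ± 0.163. The groups of Sf3b2 did not overlap, and those of Sf3b5 overlapped as deposited and not after scaling. The SF3a values lay between -0.26 and 0.46, none with an adjusted p under 0.05. The plot of genotype differences gives the members at both stages.

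**Figure D4:**
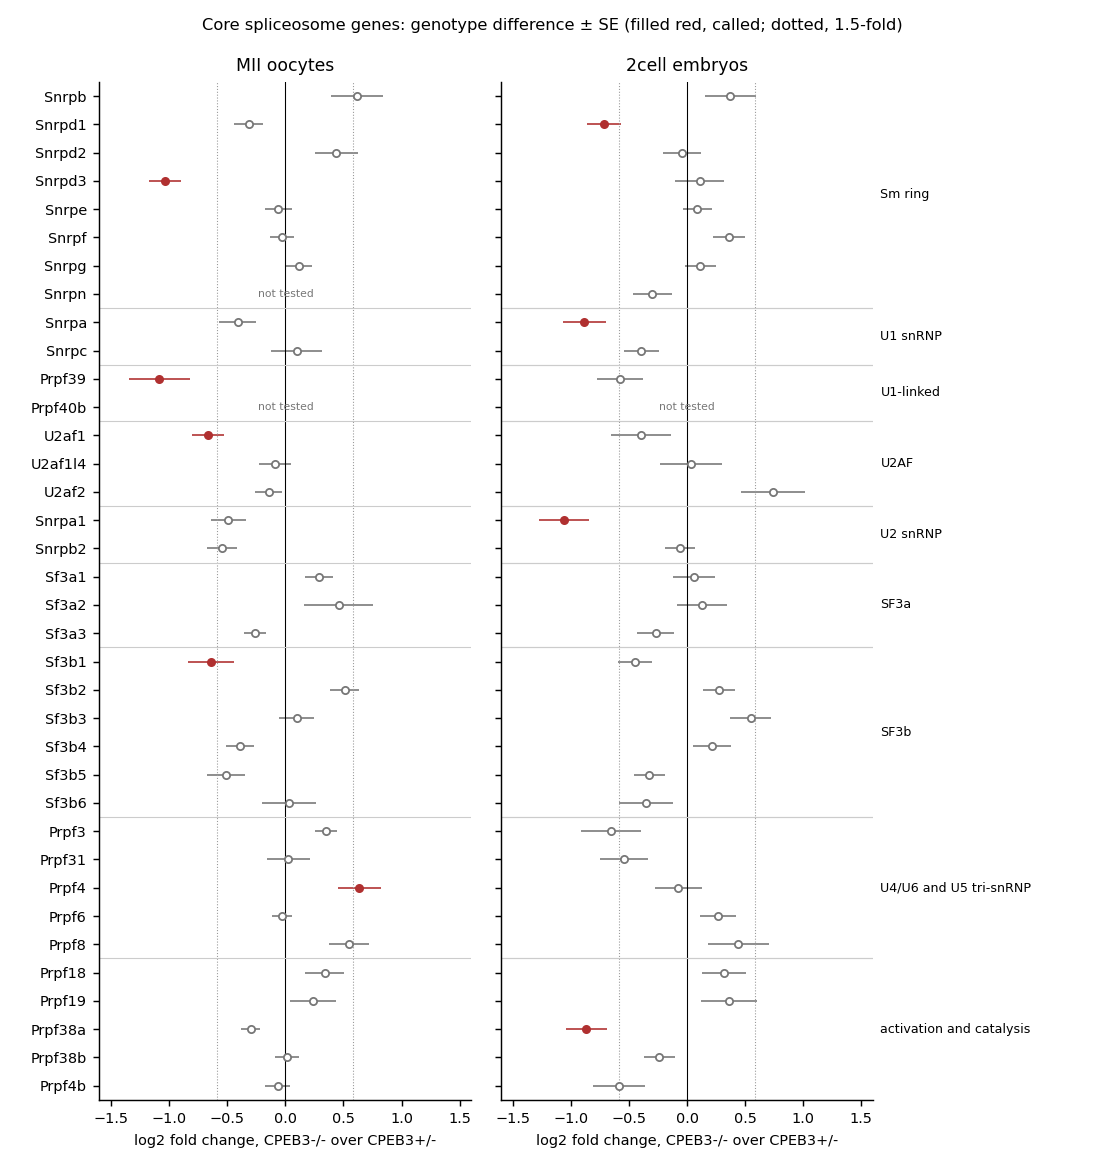
Log2 fold change of CPEB3-/- over CPEB3+/- libraries (limma, log2(FPKM + 0.1)) with its standard error for the tested ones of 36 members listed, in MII oocytes on the left and 2cell embryos on the right, ordered by role. Prpf40b at both stages and Snrpn at MII are marked as not tested. Filled red points were called and dotted lines mark 1.5-fold. No member is red on both sides at these thresholds.

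Between CPEB3-/- and CPEB3+/- 2cell embryos 4 of 36 tested members were called, all lower in CPEB3-/-, against a background of 18.0% of 14051 genes tested (9.08% higher, 8.95% lower). The members' share is 11.1%. Groups did not overlap for 7 members, 1 higher and 6 lower, against 20.2% of all genes tested (10.0% and 10.2%), and the median log2 fold change was -0.07 over the members and 0.02 over all genes tested. The summed 2cell markers had a median of 766 FPKM in CPEB3+/- and of 611 FPKM in CPEB3-/- 2cell libraries and those of cumulus and granulosa cells 1.17 and 0.954 FPKM, both with overlapping ranges. Of the 3 tested cumulus and granulosa markers 2 were called lower in CPEB3-/-, and the part of these markers in the results was not tested. Scaled to one sum of FPKM, which was lower in the CPEB3-/- 2cell libraries, 4 members were called too, but Sf3b3, Snrpf and U2af2 higher and Snrpa1 lower. That scaling moved the median of all genes to 0.26. Sf3b1 was lower without overlap as well and not called (-0.45), and so was Prpf31 after scaling (-0.54), while its groups overlapped as deposited.

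Snrpa1, the U2-specific A protein that pairs with Snrpb2 (chr7:66059003-66074587), was listed at 4.57, 4.06, 6.20, 8.14 and 7.11 FPKM in the CPEB3+/- 2cell libraries A to E and at 2.97, 2.10, 2.98 and 3.20 FPKM in the CPEB3-/- 2cell libraries A to D. No library of one group reached the other. The log2 fold change was -1.06 ± 0.214 (adjusted p = 0.00934), and it was called in 10 of 10 alternative settings (-1.11 to -0.75) and with each library left out. Snrpa, the U1-specific A protein that binds a loop of U1 snRNA, was listed at 3.24, 4.09, 4.42, 4.92 and 5.57 FPKM and at 3.04, 2.21, 1.77 and 2.59 FPKM. These groups did not overlap, with a narrow gap between CPEB3+/- library A and CPEB3-/- library A (log2 fold change -0.89 ± 0.186, adjusted p = 0.0108).

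Prpf38a, which enters with the tri-snRNP and is needed for activation (chr4:108563172-108579336), was listed at 8.76, 10.0, 11.5, 14.8 and 12.2 FPKM in CPEB3+/- and at 8.09, 6.64, 5.38 and 5.18 FPKM in CPEB3-/- 2cell libraries, without overlap (log2 fold change -0.87 ± 0.176, adjusted p = 0.00962). Snrpd1 of the Sm ring was listed at 10.4, 11.5, 14.5, 15.9 and 15.2 FPKM and at 7.39, 8.94, 7.91 and 8.59 FPKM, also without overlap (-0.71 ± 0.144, adjusted p = 0.00939). Leaving out 1 library ended none of these 4 calls. Scaling to one sum of FPKM and the replicate letter as a block each ended those of Snrpa, Prpf38a and Snrpd1, with log2 fold changes of the same sign, and removal of a GC trend ended that of Snrpd1. On the higher side Sf3b3 did not overlap on scaled values and was narrowly apart as deposited, at 0.317 ± 0.0387 FPKM (n = 5) and 0.523 ± 0.119 FPKM (n = 4), with an adjusted p of 0.0547. Snrpf was higher without overlap as deposited (11.3 ± 1.17 FPKM in CPEB3+/-, n = 5, and 14.8 ± 2.08 FPKM in CPEB3-/-, n = 4) but not after scaling.

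No member was called between the genotypes at both stages, and 9 were called at one of them. With a GC trend removed Snrpa was called lower at both, with quantile scaling Prpf39 was, and with no fold threshold Snrpa1 and Prpf38a were. The MII calls had 2cell log2 fold changes of 0.11 for Snrpd3, -0.58 for Prpf39, -0.40 for U2af1, -0.45 for Sf3b1 and -0.08 for Prpf4. The 2cell calls had MII log2 fold changes of -0.49 for Snrpa1, -0.41 for Snrpa, -0.30 for Prpf38a and -0.32 for Snrpd1. Whether the genotype difference itself changed between the stages was tested as an interaction in 1 limma fit of all 19 libraries.

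For this interaction 3 of 36 tested members (8.33%) were called, against a background of 8.37% of 15786 genes tested (3.40% higher, 4.97% lower). Snrpd3 had a value of 1.09 ± 0.248 on the log2 scale (adjusted p = 0.0103): its change from MII oocytes to 2cell embryos was -2.15 ± 0.170 in CPEB3+/- and -1.06 ± 0.180 in CPEB3-/- libraries. The 2cell libraries, at 4.51, 3.16, 4.67, 5.00 and 4.03 FPKM in CPEB3+/- and at 5.34, 5.35, 5.37 and 2.97 FPKM in CPEB3-/-, overlapped, unlike the MII libraries. The interaction was called in 10 of 10 alternative settings and with each of the 19 libraries left out.

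Prpf3, a U4/U6 protein (chr3:95830124-95855885), went the other way, with an interaction of -1.06 ± 0.252 (adjusted p = 0.0140). It was listed at 1.89, 1.83, 1.74, 2.07 and 1.78 FPKM in CPEB3+/- and at 2.45, 2.68, 2.82, 2.61 and 2.26 FPKM in CPEB3-/- MII libraries, where CPEB3-/- was above throughout. At the 2cell stage it was listed at 0.493, 0.696, 0.801, 1.16 and 0.948 FPKM and at 0.768, 0.365, 0.371 and 0.467 FPKM, where the groups overlapped and 3 of 4 CPEB3-/- libraries lay below every CPEB3+/- library. Without CPEB3+/- MII library E or CPEB3-/- MII library D the call was lost (adjusted p up to 0.0560), as it was with log2(FPKM + 1) (-0.58), 1 of 10 alternative settings. Prpf38a had an interaction of -0.62 ± 0.181 (adjusted p = 0.0392). Its MII libraries, at 6.49, 6.16, 6.38, 6.21 and 6.33 FPKM in CPEB3+/- and at 5.92, 5.24, 5.22, 5.20 and 5.79 FPKM in CPEB3-/-, lay closer together than the 2cell libraries, but the call was made in 5 of 10 alternative settings and in 4 of 19 fits that left out a library (-0.73 to -0.49).

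**Figure D5:**
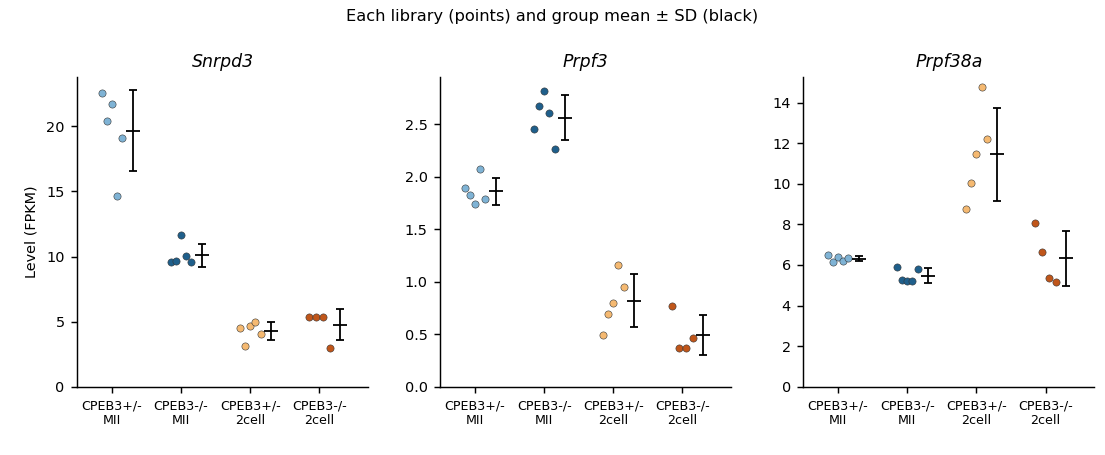
Level (FPKM) of the 3 members called for the interaction of stage and genotype, with 1 point per library and the group mean ± SD in black. The genotypes of Snrpd3 lie apart at the MII stage and overlap at the 2cell stage, the means of Prpf3 change order between the stages, and those of Prpf38a lie furthest apart at the 2cell stage.

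Other spliceosome genes, listed by function, were called in both directions as well, to be read against the 12.8% of all genes called at MII and the 18.0% called at the 2cell stage. Of 26 tested further U1, U2, U5 and tri-snRNP genes, 3 were higher and 0 lower in CPEB3-/- MII oocytes (limma, 9 with an unadjusted p under 0.05), among them Cherp, a U2-associated protein (0.521 and 1.12 FPKM, log2 fold change 0.89 ± 0.189), and Snrnp70, the U1 70K protein, with means of 7.06 and 12.1 FPKM in CPEB3+/- and CPEB3-/- (log2 fold change 0.68 ± 0.108). In 2cell embryos 1 was higher and 5 lower, among them Luc7l, a U1-associated protein (-1.01 on the log2 scale), and Snrnp40 of U5 (-0.83). Of the LSm genes, which form the U6 ring, 0 of 7 were called at MII (3 with an unadjusted p under 0.05) and 1 of 7 at the 2cell stage, Lsm2 (12.6 and 6.90 FPKM, -0.86 ± 0.143). Of the genes of the NTC, NTR, B and catalytic complexes, 2 of 27 were higher and 1 lower at MII, and 1 of 29 was higher and 4 lower at the 2cell stage. Cdc5l, a core NTC protein and the partner of Prpf19, had a mean of 0.231 ± 0.219 FPKM in CPEB3+/- MII oocytes (n = 5) and of 3.47 ± 0.665 FPKM in CPEB3-/- MII oocytes (n = 5), a log2 fold change of 3.56 ± 0.342 (adjusted p = 0.000193). At the 2cell stage it was lower in CPEB3-/- (1.16 and 0.683 FPKM, -0.67 ± 0.203), while Prpf19 was called at neither stage (0.24 ± 0.197 and 0.36 ± 0.241).

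Of 13 tested SR protein genes 0 were higher and 2 lower at MII (Srsf3 and Srsf5, 6 with an unadjusted p under 0.05), and of 14 at the 2cell stage 0 and 2 (Srsf7 and Srsf5, 5 with an unadjusted p under 0.05). Srsf7 had means of 18.1 and 5.75 FPKM in CPEB3+/- and CPEB3-/- 2cell embryos (-1.65 ± 0.177). Of 20 tested hnRNP genes 0 were higher and 3 lower at MII (7 with an unadjusted p under 0.05), and of 22 at the 2cell stage 1 was higher, Ptbp1 (0.909 and 3.17 FPKM, 1.67 ± 0.181), and 1 lower. Of 14 tested snRNP assembly genes 2 were higher and 1 lower at MII, and of 18 at the 2cell stage 1 and 1. Of the minor spliceosome genes 0 of 9 were called at MII (3 with an unadjusted p under 0.05), and 1 of 12 was higher and 2 lower at the 2cell stage. Between the stages in CPEB3+/- libraries, 14 of 19 snRNP assembly genes were higher and 3 lower, 8 of 12 minor spliceosome genes were higher and 4 lower, 5 of 7 LSm genes were higher and 2 lower, and 8 of 14 SR protein genes were higher and 3 lower. For the further U1, U2, U5 and tri-snRNP genes these counts were 9 and 10 of 27, for the NTC, NTR, B and catalytic genes 11 and 11 of 31 and for the hnRNP genes 7 and 2 of 22, beside the 41.7% and 23.7% of all genes. Wdr77, which with Prmt5 methylates Sm proteins, went from a mean of 0.00272 to 4.69 FPKM, and Snrnp25 of the minor spliceosome from 0.314 to 38.1 FPKM.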

How the data were processed

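RNA of MII oocytes and 2cell embryos was sequenced with a SMART-seq v4 kit in paired 150-base reads. According to the study's methods and the submitters' processing notes, reads were trimmed (Trim Galore 0.4.1) and mapped to GRCm38 (HISAT2 2.0.5), and the authors deposited FPKM values from SeqMonk in a table named as raw counts. The tests fit FPKM, not counts. The treatment of reads matching several places and the use of strand in counting are not given in the sources used here, so members with near copies or overlapping genes are uncertain. GENCODE vM21 gives a symbol for 25642 of 25891 genes and the table's own coordinates for 34 of 37 members. Sequences of 3′UTRs are from GENCODE transcripts and promoters from RefSeq.

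The members and gene lists were chosen with earlier results of these data known, so their counts are descriptions. 1 member enters the counts and is not reported here by itself. Genotypes were compared within a stage for genes reaching 0.1 FPKM in 5 libraries (MII) or 4 libraries (2cell). After scaling by trimmed means of log ratios (30% of log ratios and 5% of levels trimmed on each side), log2(FPKM + 0.1) was fitted with a variance trend by limma 3.58.1 (R 4.3.3), and p-values were adjusted over all genes tested. Stage and interaction came from 1 fit of all 19 libraries, for genes reaching 0.1 FPKM in 4 of them. Depth was estimated from low values of 9238 genes with 1 transcript, of which a median of 40.6% lay within 0.05 of a whole fragment, so fragment numbers are approximate and cover counting error only. Named members were up to 6 called per stage by size of the genotype difference, the 5 largest rises and 5 largest falls between stages in CPEB3+/-, up to 5 called for the interaction, and the 2 highest and 2 lowest by mean. Up to 2 called genes were named per other list. Further genes were named after their values were seen. The fits were tested on simulated data, where 77% (MII), 64% (2cell) and 44% (interaction) of 2-fold changes were recovered. The changed genes were drawn from the better expressed ones, so members at low levels were not covered.

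Alternatives were the values as deposited, scaling to the sum, quantile scaling, log2(FPKM + 1), no filter, a filter of 1 FPKM, removal of a GC trend (loess, span 0.5), the replicate letter as a block, no fold threshold, other libraries in the fit, no variance trend (interaction) and each library left out. Python 3.11.15, pandas 2.3.3 and Biopython 1.88 were used.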

Additional observations from a re-analysis of the deposited data

Results flagged for a closer look

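Of 148 pairs of a member and a group, 9 had 1 library far from the others of its group by the gap ratio of Dixon, which is 6.08%, where chance gives about 1 in 20. Snrpd3 stood out in both CPEB3-/- groups. Library D of the 2cell embryos was lowest at 2.97 FPKM beside 5.34 to 5.37 FPKM, and library C of the MII oocytes was highest at 11.7 FPKM beside 9.54 to 10.0 FPKM. U2af1 was lowest in the same 2cell library D, at 0.369 FPKM beside 0.595 to 0.620 FPKM. In CPEB3-/- MII oocytes Sf3a3 was highest in library E (10.3 FPKM beside 8.94 to 9.26 FPKM) and Sf3b5 lowest in library D (10.3 FPKM beside 17.6 to 20.3 FPKM). In CPEB3+/- MII oocytes Prpf31 was highest in library D (0.637 FPKM), Snrpd2 lowest in library C (0.188 FPKM) and Snrpn lowest in library A (0.0487 FPKM). In CPEB3+/- 2cell embryos Snrpg was lowest in library A (4.72 FPKM). The MII and interaction calls of Snrpd3 were made without either of its libraries as well.

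A change of the genotype difference between MII oocytes and 2cell embryos was called, by the interaction test, for Snrpd3 (1.09 on the log2 scale), Prpf3 (-1.06) and Prpf38a (-0.62). This share, 8.33% of tested members, is near the 8.37% of all genes. The call of Prpf38a was made in 5 of 10 alternative settings and in 4 of 19 fits that left out a library.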

How the results depend on the processing

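The values of members named for a call kept their direction under every alternative that could be run and with each library left out. Uncalled values changed sign for Snrpe between the stages (-0.77 to 0.23) and for Prpf4 at the 2cell stage (-0.10 to 0.22), and for others, among them Prpf18 between the stages in CPEB3+/- (-0.15 to 0.73). Of 217 values of members named for a call under other settings 188 kept their side of the threshold, and of 333 with 1 library left out 302 did. The number of members called at MII (5) was 1 with log2(FPKM + 1), 3 with no filter, 2 with a filter of 1 FPKM, 13 with no fold threshold, and 2 to 9 with 1 library left out. It was 9 without CPEB3+/- library B, 2 without CPEB3-/- library B, and 3 without CPEB3+/- A, C or D or CPEB3-/- A or C. At the 2cell stage (4) it was 7 with all 19 libraries in 1 fit and 4 to 5 with 1 left out. For the interaction (3) it was 1 with log2(FPKM + 1) and 1 to 4 with 1 left out, 1 without CPEB3+/- MII library E or CPEB3-/- MII library D. Between the stages it was 26 to 28 (CPEB3+/-) and 23 to 25 (CPEB3-/-) with 1 left out, and quantile scaling gave 8 higher and 22 lower, and 8 and 20. The cause of these shifts was not tested.

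The labels do not say whether the replicate letters pair the libraries, and the correlations below cannot decide it. The correlation of deviations between libraries of 1 letter ran from -0.148 to 0.0966, none over 0.1, and not every library was most like that of its own letter. With the replicate block 2 members were called at MII, 1 at the 2cell stage and 2 for the interaction, and among all genes 832 in place of 1349 at MII and 361 in place of 2534 at the 2cell stage. Values near 0.1 FPKM rest on few fragments, and how small a change of a low member could be detected was not tested.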
